A study of Mus musculus with 12 samples.

Results

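CD8 T cells collected 72 h after the start of activation (72h) were compared with cells collected at 24 h (24h), gene by gene over the whole transcriptome. The cells came from the spleens of OT-I mice, a strain with a transgenic T cell receptor that recognises a peptide of ovalbumin, and were naive CD8 T cells when culture began. All activated cells received antibodies to CD3 and CD28 together with IL-2. At 24 h they were still on the activation plates. At 48 h they were taken off and kept in ordinary culture, so 72h cells were sampled after about a day away from the stimulus, and elapsed time and removal from the antibodies cannot be told apart. Each time had 3 libraries, called biological replicates by the submitters, giving 6 of the 12 libraries of the series, whose other groups are unstimulated cells (Naive) and cells at 48 h (48h). The number of animals behind the replicates is not given, so p-values measure the spread between these samples. The extraction notes speak of transferred OT-I cells, and whether this holds for these libraries is not given. Of 48709 genes in the table, 19181 had a value above 0 in any library. The 12630 that reached 1 TPM in 3 or more of the 12 libraries were tested.

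Antibodies to CD3 and CD28 stand in for antigen and costimulation. They drive the kinases, calcium and NF-kB signals downstream of the T cell receptor (TCR), which switch on immediate early transcription factors, cytokines and chemokines within hours. The cell then leaves quiescence, enlarges, builds ribosomes under the control of MYC and mTOR, and divides repeatedly. When the stimulus ends, IL-2 can sustain division, and genes of trafficking, survival and effector differentiation are set by factors such as BLIMP-1, ID2, T-bet, TCF-1 and FOXO1. The title of the series places FOXO1 and KLHL6, a substrate adaptor of a cullin-3 ubiquitin ligase, at its centre.

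Expression was deposited as TPM, which divides reads by transcript length and by the library's total, and was analysed as log2(TPM + 1). All rises, falls and differences below are log2 values on that scale. The rule for calling a gene at 72h was a limma adjusted p below 0.05 and a change of 2-fold or more, which is 1 on the log2 scale. At 72h 875 of the 12630 genes were called higher (6.93%) and 783 lower (6.2%), 13.1% in either direction. By adjusted p alone 60.0% of genes differed (29.1% higher, 30.8% lower), and the 3 libraries of 1 time did not overlap with those of the other for 70.4%, so the fold minimum does most of the selection. A change of at least 4-fold was called for 141 higher and 148 lower genes. The median of all genes was −0.014, and the median SE of a fold change was 0.114. Whole reads recovered from the 6 libraries came to between 17295086 and 19495722. Pearson r on log2(TPM + 1) was 0.9929 to 0.9939 among 24h libraries, 0.9941 to 0.9951 among 72h libraries and 0.9453 to 0.9505 between the times. Within the 24h group, replicate 2 was the lowest library for 34.4% of all genes tested but for most of the members in 15 of the 39 gene lists other than cell type markers, and the count is given beside each of these lists. In bulk RNA fewer cells of a type and less RNA per cell cannot be told apart.

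**Figure D1:**
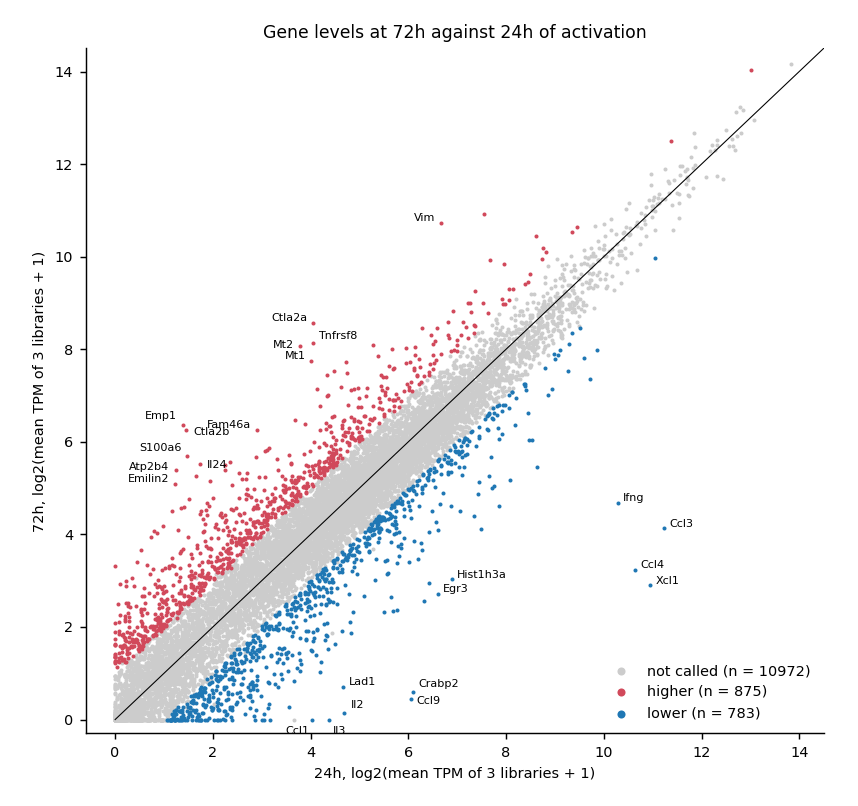
Each point is 1 of 12630 genes, with its mean level in the 3 24h libraries (x axis) and in the 3 72h libraries (y axis), both as log2(TPM + 1). Red points are the 875 genes called higher and blue points the 783 called lower; the 12 largest rises and falls that met the naming rule are labelled, and the chemokines and Ifng stand farthest from the diagonal.

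The label of the samples was checked on lineage markers. Cd8a stood at 439.9 ± 40.7 TPM at 24h and 367 ± 10.5 at 72h (mean ± SD, n = 3 here and below), Cd3e at 285 ± 8 and 482 ± 6.09, and Cd4 at 0.492 ± 0.249 and 0.567 ± 0.162. The summed level of 15 T cell markers was 8369 to 8968 TPM at 24h and 8374 to 8844 at 72h. Markers of other cells were lower at 72h for the B cell list, with a sum of 876.0 to 949.7 TPM at 24h against 577.7 to 593.1. Of its 18 tested members 11 were called lower (61.1%, against 6.2% of all genes). Ighm, the heavy chain of IgM, alone stood at 433 ± 34.4 and 471 ± 17.8 TPM. Cd74, the invariant chain of MHC class II, was at 257, 281 and 267 TPM in the 24h libraries and at 32.9, 35.2 and 37.1 at 72h, a fall with a log2 change of −2.9 (SE 0.12, limma adjusted p = 9.57e-10). The defining B cell gene Cd79a was low at both times, falling from 16.5 to 2.84 TPM. The myeloid sum was 52.46 to 64.62 TPM at 24h and 23.08 to 29.43 at 72h, where 14 to 16 of its 24 genes found were at 0 against 2 to 5 at 24h. Lyz2, the lysozyme of macrophages and neutrophils, was at 8.87, 7.89 and 7.06 TPM in the 24h libraries and is listed at 0 in all 72h libraries. The erythroid and platelet sum was 20.16 to 20.66 TPM against 4.623 to 6.535. Sums were higher at 72h for the NK cell list (124.3 to 131.1 against 161.4 to 175.8 TPM), the CD4 and regulatory T cell list (22.04 to 25.83 against 49.36 to 50.63) and the stromal and endothelial list (9.946 to 10.31 against 20.92 to 22.82). In the NK cell list 1 member was called higher (9.09%, against 6.93% of all genes) and 3 lower (27.3%, against 6.2%). The higher member was Gzma, a granzyme that activated CD8 T cells also express, at 16.6 and 141 TPM. Without it, a sum taken after the values were seen, the NK cell list was lower at 72h, at 110.3 to 113.5 TPM at 24h against 27.13 to 30.63, and most of that was Eomes, which CD8 T cells also express. The called genes of the CD4 and regulatory T cell list included Ikzf2 (Helios, 5.29 to 13.9 TPM) and Ikzf4 (Eos, 11.9 to 27.5), and the stromal call was Pecam1 (9.64 to 21), an adhesion molecule that T cells can also express. The part of these cells in the results below was not tested.

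**Figure D2:**
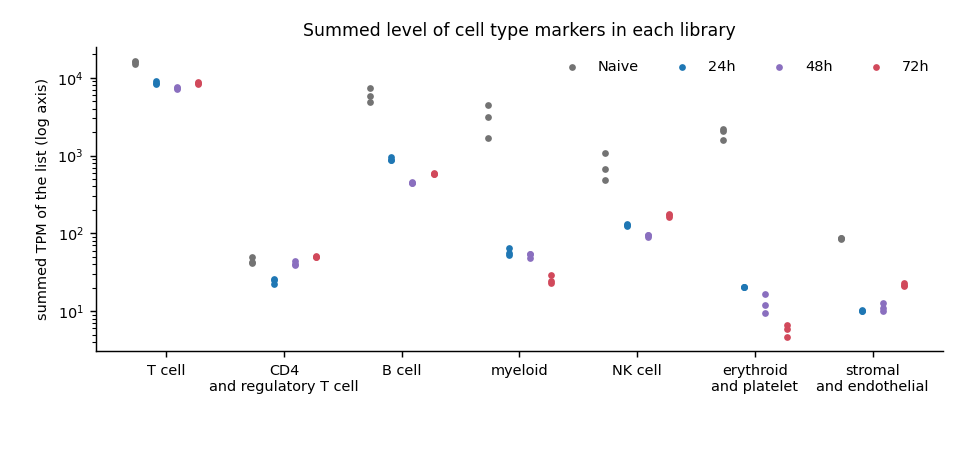
Summed TPM of 7 marker lists (log axis), with 1 point per library and the 4 groups in colour. T cell markers stay at 8369 to 8968 TPM at 24h and 8374 to 8844 at 72h, while B cell, myeloid and erythroid sums are lower at 72h than at 24h in every library.

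Many genes that the TCR switches on early were lower at 72h. Of 45 such genes tested, 18 were called lower (40.0%, against 6.2% of all genes tested) and 3 higher (6.67%, against 6.93%), with a median of −0.73. The NR4A orphan nuclear receptors, which report recent TCR signalling, fell together. Nr4a1 (Nur77) was at 228, 206 and 207 TPM in the 24h libraries and 30.8, 32.4 and 33.6 at 72h, a fall with a log2 change of −2.69 (SE 0.066, limma adjusted p = 1.95e-11). All 72h libraries lay far below all 24h libraries, and the Naive mean was 749 TPM. Nr4a3 went from 229.98 ± 15.7 to 23.5 ± 1.06 TPM and Nr4a2 from 71.9 ± 2.86 to 10.1 ± 1.83. The early growth response factors Egr2 and Egr3, which restrain T cell activation, fell with log2 changes of −2.62 and −3.88, Egr2 from 62.4, 59.1 and 70.2 TPM to 9.05, 8.51 and 11.4 and Egr3 from 96.1 to 5.6. Egr1 lay at the fold minimum (−1.004). For the NR4A genes most of the drop lay between 48h and 72h, with 48h means of 196 TPM for Nr4a1, 181 for Nr4a3 and 49.6 for Nr4a2, while Egr2 and Egr3 were already at 16.6 and 23.2.

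Further called members of that list were NF-kB components and feedback regulators. Nfkb2 fell from 349 to 96.9 TPM, Rel from 112 to 38.4 and the inhibitor Nfkbia from 198 to 75.2. The Sprouty genes Spry1 and Spry2, which dampen receptor signalling to ERK, fell with log2 changes of −2.42 and −1.6. The list did not move as a block. Irf4, a factor whose level follows TCR strength, was at 467 ± 22.3 TPM at 24h and 436 ± 17.7 at 72h (−0.1, adjusted p = 0.164, limma), and its partner Batf was at 64.4 and 64.2. The related factor Batf3 rose from 30.6 ± 2.8 to 142 ± 7.44 TPM, a change of 2.19, and Bhlhe40 and Atf3 rose by 1.04 and 1.01. Replicate 2 was the lowest 24h library for 30 of the 45 genes, and without it 19 were called lower and 1 higher. Cd69, an early activation antigen that holds T cells in tissue by opposing S1PR1, was at 219, 225 and 249 TPM at 24h and 66.1, 66.7 and 65.7 at 72h, a fall with a log2 change of −1.79.

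The largest falls of the whole comparison were in secreted effector molecules. Of 30 cytokine and chemokine genes tested, 13 were called lower (43.3%, against 6.2% of all genes) and 5 higher (16.7%, against 6.93%), with a median of −0.89. The lowest 24h library was replicate 2 for 16 of the 30, and without it 14 were called lower and 6 higher. Xcl1, the chemokine that draws cross-presenting dendritic cells, was at 2051, 1937 and 1952 TPM in the 24h libraries and 6.78, 8.33 and 4.24 in the 72h libraries. All 24h libraries lay far above all 72h libraries, and the log2 fold change was −8.1 (SE 0.41, limma adjusted p = 6.53e-09). Ccl3 and Ccl4, both inflammatory chemokines, were also abundant at 24h. Ccl3 was at 2313, 2163 and 2761 TPM at 24h and 20.1, 14.3 and 15.1 at 72h, a fall with a log2 change of −7.12. Ccl4 was at 1562, 1415 and 1823 TPM at 24h and 9.47, 5.81 and 10.1 at 72h, a fall with a log2 change of −7.43. The 3 genes had 48h means of 345 (Xcl1), 1547 (Ccl3) and 781 TPM (Ccl4), so the larger part of each log2 drop lay between 48h and 72h.

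Ifng, the main macrophage-activating cytokine of CD8 T cells, passed through a peak. It was at 1263, 1062 and 1426 TPM in the 24h libraries, 5871 ± 186 at 48h and 21.7, 23.5 and 29 in the 72h libraries. The 72h level was close to the 21.7 ± 7.74 TPM of Naive cells, and the log2 change against 24h was −5.6 (SE 0.21, limma adjusted p = 6.02e-10). Its steps were 2.24 from 24h to 48h and −7.84 from 48h to 72h, which share the 48h libraries with each other and their outer libraries with the 72h against 24h comparison. Il2, the T cell growth factor, was at 26.6, 18.6 and 29 TPM at 24h and 0.295, 0 and 0 at 72h. Il3 was at 19.9, 14.9 and 24.4 TPM at 24h, had a 48h mean of 62.5 and is listed at 0 in all 72h libraries. Ccl1 was at 13.4, 17.5 and 14.9 TPM at 24h and is listed at 0 in the 72h libraries. Other called falls were those of Ccl9 (65.5 to 0.365 TPM), Csf2 (15.5 to 2.73), Tnfsf14 or LIGHT (46.8 to 7.95) and Tnfsf11 or RANKL (89.1 to 21.7).

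Other secreted factors rose. Il24, a cytokine of the IL-10 family, was at 2.32, 2.14 and 2.56 TPM at 24h and 47.8, 39.6 and 46.7 at 72h, a rise of 3.77 with a 48h mean of 108. Il10, an anti-inflammatory cytokine, rose from 0.734 ± 0.309 to 15.8 ± 1.31 TPM. Fasl, the death ligand used in killing, rose from 5.41 to 26.1 TPM, and Osm from 26.5 to 61.7. Tnf stood at 44.6 ± 4.51 and 31.8 ± 1.67 TPM (−0.47), Lta at 409 ± 3.34 and 307 ± 29.7 (−0.41), and neither reached the fold minimum.

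**Figure D3:**
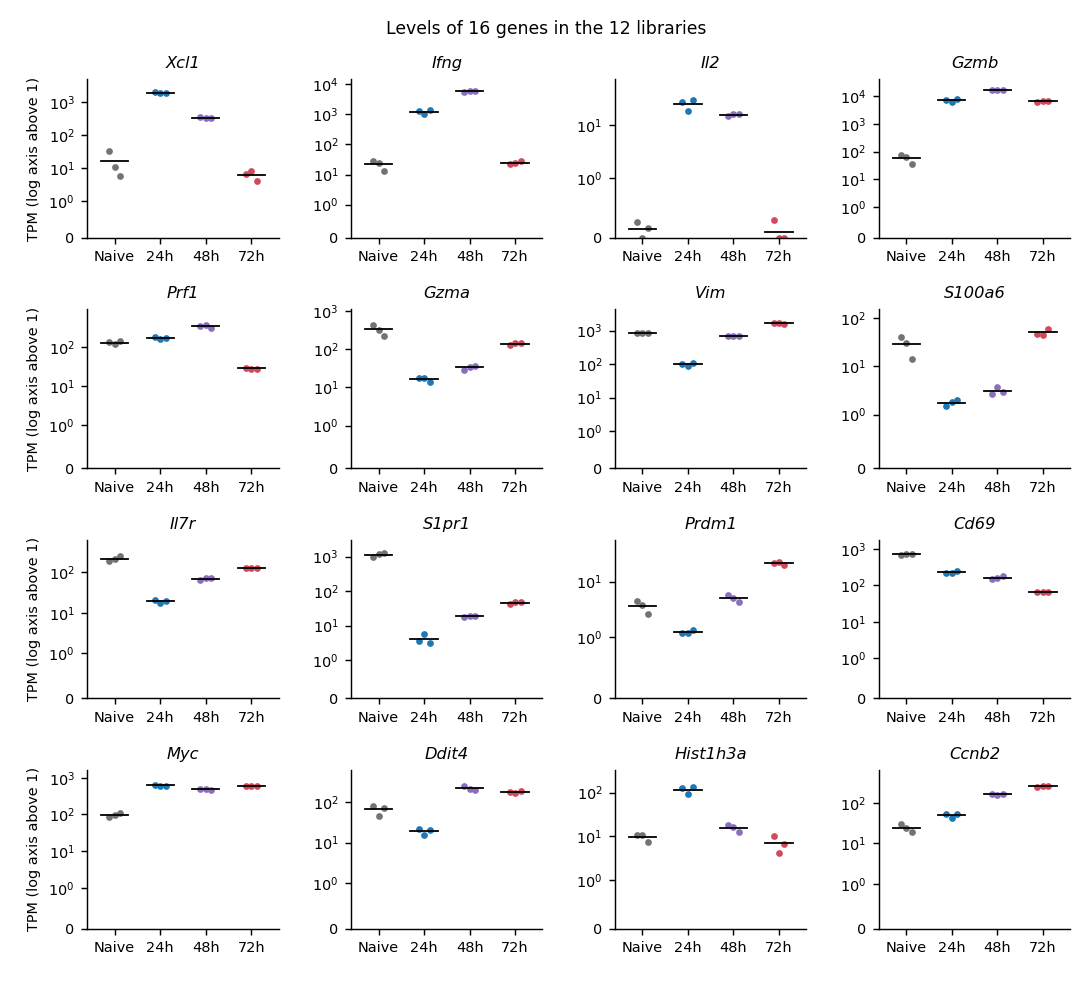
TPM of 16 genes in each of the 12 libraries (points) with the group mean (line), on an axis that is logarithmic above 1 TPM and linear below. Xcl1 goes from 1937 to 2051 TPM at 24h to 4.24 to 8.33 at 72h, Ifng and Gzmb are highest at 48h, and Vim, S100a6, Il7r, S1pr1 and Prdm1 are lowest at 24h.

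Called changes in proximal TCR signalling were rises. Of 28 proximal TCR signalling genes, 5 were called higher (17.9%, against 6.93% of all genes) and none lower by the full rule (against 6.2%). The median was 0.15. By adjusted p alone 13 were higher (46.4%, against 29.1% of all genes) and 8 lower (28.6%, against 30.8%). Without 72h replicate 1, 1 was called lower. Cd3g, a chain of the CD3 complex, was at 271, 305 and 271 TPM at 24h and 606, 635 and 639.7 at 72h, a rise of 1.15. Themis, an adaptor that tunes TCR signal strength, rose from 51.4 ± 6.36 to 192 ± 9.57 TPM, and the exchange factor Rasgrp1 from 61.5 ± 0.564 to 152 ± 7.59. The adaptors Fyb and Skap1, which link the TCR to integrins, rose by 1.3 and 1.26, to 131 and 52.2 TPM. In Naive cells the means were 686 TPM for Cd3g, 140 for Rasgrp1, 142 for Fyb and 61.7 for Skap1, all above their 24h means. That of Themis was 54.2 TPM. Lck was at 402 and 420.3 TPM, Zap70 at 173 and 121, and Lat at 553 and 317, and none of the 3 passed both thresholds. Of 29 negative regulators of TCR signalling, 3 were called lower (10.3%, against 6.2% of all genes) and none higher, with a median of 0.17, and voom on recovered reads called 1 higher. Cd5, a receptor whose level tracks TCR signalling, was at 594, 688 and 565 TPM at 24h and 188, 183 and 179 at 72h, a fall with a log2 change of −1.74. The related receptor Cd6 fell by 1.78, from 489 to 141 TPM, and Tnfaip3 (A20), which limits NF-kB, fell by 1.12.

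Called changes in cytokine receptors were also rises. Of 27 genes, 6 were called higher (22.2%, against 6.93% of all genes) and none lower (against 6.2%). The median was 0.14, and voom on recovered reads called 1 lower. By adjusted p alone 12 were higher (44.4%, against 29.1% of all genes) and 8 lower (29.6%, against 30.8%). Il7r, the receptor for the survival cytokine IL-7, was at 20.5, 17.1 and 19.8 TPM at 24h and 128, 125 and 126 at 72h, a rise of 2.67 (SE 0.11, limma adjusted p = 9.57e-10). The 72h libraries lay above all 24h libraries and below the Naive mean of 216 TPM. Ifngr1, a chain of the interferon gamma receptor, rose from 23.6 ± 3.52 to 145 ± 7.63 TPM, with a 48h mean of 55.9. Its ligand Ifng was lower at 72h than at 24h, but from 24h to 48h both genes rose. The Naive mean of Ifngr1 was 737 TPM. Il2ra, the inducible alpha chain that gives the IL-2 receptor high affinity, was at 435, 449 and 458 TPM at 24h and 1123, 1117 and 1045 at 72h, a rise of 1.29. Il18r1 and Il18rap, the subunits of the IL-18 receptor, rose by 2.27 and 1.26, and Il12rb2 by 1.63. The shared chain Il2rb was at 525 and 982 TPM (0.9), under the fold minimum, and Il2rg at 538 and 408. Among 26 genes that respond to IL-2 and STAT5, 5 were called higher (19.2%, against 6.93% of all genes) and 3 lower (11.5%, against 6.2%). Without 24h replicate 3, 5 were called lower, and replicate 2 was the lowest 24h library for 15 of the 26. The signal inhibitor Socs2 rose by 1.63, while the kinase Pim3 fell by 1.57 and Stat5a fell by 1.47.

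Costimulatory and inhibitory receptors split. Tnfrsf8 (CD30), a TNF receptor of activated lymphocytes, was at 16.9, 15.8 and 13.8 TPM at 24h and 293, 281 and 271 at 72h, a rise of 4.1 and the largest among 20 costimulatory receptors. Icos rose from 111 ± 7.64 to 314 ± 13.6 TPM. Crtam, an early activation receptor of CD8 T cells, was at 379, 404 and 403 TPM at 24h and 41.4, 43.5 and 43.4 at 72h, a fall with a log2 change of −3.18 with no overlap. Tnfrsf21 (death receptor 6) fell by 2.84. Cd28 itself was at 136 and 139 TPM, and Tnfrsf9 (4-1BB) at 422 and 304 (−0.47). In all 4 costimulatory receptors were called higher (20%, against 6.93% of all genes) and 3 lower (15%, against 6.2%).

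Of 20 inhibitory receptors and ectoenzymes, 5 were called higher (25%, against 6.93% of all genes) and 4 lower (20%, against 6.2%), with a median of 0.26. Pdcd1, which encodes PD-1, was at 91.1, 96.6 and 102 TPM at 24h and 15.5, 17.8 and 15 at 72h, a fall with a log2 change of −2.51 (SE 0.17, limma adjusted p = 1.05e-07). It stepped down at each time, with a 48h mean of 48.6 TPM, and stayed above the 1.52 TPM of Naive cells. Ctla4, a competitor of CD28 for its ligands, was at 85.9, 54.4 and 90.1 TPM at 24h and 365, 351 and 339 at 72h, a rise of 2.21. Its level was highest at 48h, at 828 ± 6.46 TPM. Lag3 (137 ± 9.9 and 199.7 ± 8.31 TPM, 0.54) and Tigit (64.1 ± 9.17 and 79.7 ± 1.44 TPM, 0.32) passed the adjusted p but not the fold minimum, and both were also highest at 48h, at 368 and 162 TPM. Havcr2 (TIM-3) rose at a low level, from 3.2 ± 0.957 to 9.78 ± 0.9 TPM. Cd200 fell from 116 ± 9.43 to 23.6 ± 1.92 TPM, Cd160 changed by −1.48 and Pdcd1lg2 (PD-L2) by −1.15. Cd80, a ligand of CD28 and CTLA-4 that T cells can carry, rose from 3.02 ± 0.657 to 26.7 ± 0.767 TPM, and Entpd1 (CD39) from 0.538 ± 0.14 to 4.7 ± 0.39.

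The cytotoxic genes did not share a direction, and their median of 0.1 changed sign with a filter of 5 TPM and without 24h replicate 1 or 72h replicate 3. Of 25 tested, 7 were called higher (28.0%, against 6.93% of all genes) and 3 lower (12%, against 6.2%), and 3 were called higher with the filter of 5 TPM. Gzmb, the main granzyme of activated CD8 T cells, was at 7265, 6379 and 7717 TPM at 24h and 6378, 6624 and 6672 at 72h, and the groups overlapped (−0.11, SE 0.19, limma adjusted p = 0.639). Its 48h mean was 16357 ± 257 TPM, above every library of the other groups. Prf1, the pore-forming protein perforin, was at 182, 159.7 and 169 TPM at 24h, had a 48h mean of 346 and was at 29.3, 27.7 and 28.1 at 72h, a fall with a log2 change of −2.54. Serpinb9, an inhibitor of granzyme B, fell from 371 ± 14 to 64.4 ± 2.82 TPM. Gzma, a tryptase-like granzyme, was at 18.1, 17.6 and 14 TPM at 24h and 131, 142 and 149 at 72h, a rise of 3.02 to a level below the Naive mean of 329. Gzmk was at 0, 0.112 and 0 TPM at 24h and 4.38, 4.52 and 5.01 at 72h and was called higher. Gzmd and Gzme are listed at 0 in all 24h libraries and had 72h means of 2.71 and 1.54 TPM. These granzymes lie in a cluster of similar genes, and how reads shared between such copies were counted is not given. Nkg7 (532 and 512 TPM), Srgn (252 and 236) and Lamp1 (193 and 176) moved by less than the fold minimum. Ctla2a and Ctla2b, which encode inhibitors of cysteine cathepsins, were among the largest rises: Ctla2a was at 17.1, 13.2 and 16.6 TPM at 24h and 377, 355 and 403 at 72h (4.52), and Ctla2b followed at 4.82. The 2 genes are close copies, so their separate values are uncertain.

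Transcription factors of effector and memory fate included both directions. Of 31 tested, 7 were called higher (22.6%, against 6.93% of all genes) and 2 lower (6.45%, against 6.2%), with a median of 0.19. For 18 of the 31 replicate 2 was the lowest 24h library, and without it 7 were called higher and 2 lower. Prdm1, which encodes BLIMP-1, a repressor that promotes terminal effector cells, was at 1.17, 1.17 and 1.35 TPM at 24h and 22.1, 23.1 and 19.7 at 72h. Every 72h library lay above every 24h library, and the rise was 3.34 (SE 0.15, limma adjusted p = 2.76e-09). Id2, an inhibitor of E proteins that sustains effector cells, rose from 69.6 ± 6.6 to 262 ± 1.85 TPM, Nfil3 from 34.4 ± 3.27 to 127 ± 5.93, and Myb, which maintains stem-like CD8 T cells, from 18.8 ± 3.04 to 76.7 ± 1.85. Hopx and Zfp683 (Hobit) rose by 1.28 and 1.03. Eomes, a T-box factor of effector and memory CD8 T cells, was at 95.6, 103 and 98.6 TPM at 24h and 24.1, 26.1 and 22.1 at 72h, a fall with a log2 change of −1.998. Its relative Tbx21 (T-bet) was at 159 ± 4.56 and 127 ± 4.45 TPM (−0.32, adjusted p = 0.0204, limma), below the fold minimum, with a dip to 63.6 at 48h. Bach2, a repressor that protects memory potential, fell from 52.8 ± 2.75 to 16.7 ± 0.49 TPM. Tcf7 (TCF-1), a factor that naive and stem-like T cells need, was at 218, 250.05 and 188 TPM at 24h and 207, 207 and 188 at 72h, with overlapping groups (−0.12, adjusted p = 0.386, limma) against a Naive mean of 1211. Tox, a factor of exhausted T cells, was at 8.41 ± 0.549 and 9.75 ± 0.163 TPM (0.19, adjusted p = 0.164, limma).

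Genes of naive cells and of quiescence were mixed: of 38 tested, 9 were called higher (23.7%, against 6.93% of all genes) and 5 lower (13.2%, against 6.2%), with a median of 0.32. S1pr1, the receptor by which T cells leave lymphoid organs, was at 3.58, 5.59 and 3.1 TPM at 24h and 43.4, 47.2 and 48.6 at 72h, a rise of 3.25. Klf2, the factor that controls S1pr1, was at 6.86, 6.93 and 5.75 TPM at 24h and 23, 25.6 and 23.1 at 72h, a rise of 1.73. The groups did not overlap for either gene, and both stayed far under their Naive means of 1136 and 4452 TPM. Ccr7, a lymph node homing receptor, was at 735, 732 and 731 TPM at 24h and 355, 355 and 349 at 72h, a fall with a log2 change of −1.05 after a 48h mean of 1010.2. Tsc22d3 (GILZ) rose from 4.32 ± 0.651 to 21.9 ± 0.787 TPM, and Txnip, a brake on glucose uptake, from 89.3 ± 23.1 to 275 ± 8.03. Rbl2, the retinoblastoma-like protein p130 of quiescent cells, rose from 13.6 ± 0.412 to 52.2 ± 4.77 TPM. The Naive means were 593 TPM for Tsc22d3 and 28.7 for Rbl2. Slfn2, a schlafen required for T cell quiescence, fell from 836 ± 43.4 to 162 ± 4.75 TPM, and the antiproliferative gene Btg1 from 225 ± 2.32 to 95.3 ± 1.95. Among 8 GIMAP GTPases, which support lymphocyte survival, Gimap7 rose from 40.5 ± 5.71 to 229 ± 12.7 TPM and Gimap4 from 248 ± 19.8 to 917 ± 43.5. They were the 2 called higher (25%, against 6.93% of all genes), and none was called lower (against 6.2%). By adjusted p alone 6 were higher (75.0%, against 29.1% of all genes) and 1 lower (12.5%, against 30.8%).

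Foxo1 and Klhl6 were higher at 72h by adjusted p but by less than 2-fold, and were not called. Foxo1 (ENSMUSG00000044167), the forkhead factor that drives Il7r and Klf2 in resting T cells, was at 47.7, 47.9 and 45.6 TPM at 24h and 61.5, 63.6 and 56.3 at 72h. The groups did not overlap, and the difference was 0.35 (SE 0.092, limma adjusted p = 0.00495). Klhl6 (ENSMUSG00000043008) was at 38.8, 51.4 and 39.4 TPM at 24h and 70.3, 78.3 and 75.6 at 72h, also without overlap, a difference of 0.79 (SE 0.10, limma adjusted p = 3.17e-05). Foxo3 was at 29.1 and 19.9 TPM (−0.53). Of 34 genes of cullin-3 and its BTB-kelch adaptors, 2 were called higher and none lower, with a median of 0.16, a share close to that of all genes (5.88% against 6.93%). Those were Klhl24, which rose from 5.82 ± 0.235 to 15.7 ± 1.57 TPM, and Klhl5, from 11.8 ± 0.201 to 25.2 ± 0.833, whose call was lost with quantile normalization. The Naive means were 91.1 TPM for Klhl24 and 6.75 for Klhl5. Cul3 itself was at 129 and 157 TPM.

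The FOXO recognition letters GTAAACA were searched on both strands of RefSeq promoters (250 bases before to 50 after each start, matched by gene symbol; coordinates are those of GRCm38.p6, while the expression files were made on GRCm39). They were present in 10.9% of 46 promoters found for 32 of the 38 naive and quiescence genes. They were in 2.57% of 12242 promoters of the genes tested, 3.8% of 842 promoters of genes called higher, 2.07% of 724 of genes called lower and 3.65% of all 32851 promoters. The called members with the largest changes that held a match were Txnip (chr3:96557707-96558006, plus strand), which rose, and Btg1 (chr10:96616751-96617050, plus strand), which fell. Both are shown 5′ to 3′ on the strand of the gene with the match in capitals, Btg1 holding it on the opposite strand.
Txnip: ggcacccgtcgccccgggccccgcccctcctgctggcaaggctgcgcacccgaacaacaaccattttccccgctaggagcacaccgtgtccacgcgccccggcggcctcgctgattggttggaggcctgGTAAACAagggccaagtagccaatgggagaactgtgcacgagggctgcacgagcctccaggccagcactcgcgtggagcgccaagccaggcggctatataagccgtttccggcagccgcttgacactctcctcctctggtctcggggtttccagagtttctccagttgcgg
Btg1: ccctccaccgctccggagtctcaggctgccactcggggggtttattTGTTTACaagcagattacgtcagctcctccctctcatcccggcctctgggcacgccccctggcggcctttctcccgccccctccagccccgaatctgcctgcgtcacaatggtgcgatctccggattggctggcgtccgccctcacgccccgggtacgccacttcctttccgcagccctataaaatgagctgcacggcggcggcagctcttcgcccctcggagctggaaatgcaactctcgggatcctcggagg
The match is a description of the letters, present in a gene of each direction.

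Trafficking receptors otherwise included both called directions, with 9 of 27 chemokine, egress and adhesion genes higher (33.3%, against 6.93% of all genes) and 4 lower (14.8%, against 6.2%). Cxcr3, which guides effector cells to inflamed tissue, was at 20.2, 27.7 and 23.8 TPM at 24h, 7.04 ± 1.55 at 48h and 75.5, 80.2 and 76.1 at 72h, so the rise of 1.66 spanned a dip. Cxcr4, the receptor of the marrow chemokine CXCL12, rose from 4.58 ± 0.772 to 22.9 ± 3.44 TPM, below its Naive mean of 434. Ccr4 rose from 68.1 ± 6.5 to 186 ± 1.51 TPM. The integrins Itgb7, Itgb3 and Itga4 rose by 1.86, 1.58 and 1.06, while Itgae (CD103) fell by 1.46. Cd44, the hyaluronan receptor of activated and memory T cells, was at 145 ± 9.37 and 129 ± 5.3 TPM (−0.17, adjusted p = 0.26, limma). Of 17 killer lectin-like receptors, 2 were called higher (11.8%, against 6.93% of all genes) and none lower (against 6.2%). Klrk1 (NKG2D) was at 25.5, 23.7 and 27.2 TPM at 24h and 211, 216 and 202 at 72h, a rise of 2.99. Klrd1 (CD94) rose from 30.7 ± 2.82 to 122 ± 6.77 TPM, and no other member was called. The Naive means were 36.9 TPM for Klrk1 and 186 for Klrd1. Klrk1 and Klrd1 are also expressed by NK cells, whose full marker sum was higher at 72h. Without Gzma, left out after the values were seen, that sum was lower, and most of it was Eomes. The part of NK cells in these rises was not tested. Ncr1, a defining NK cell receptor, had a mean of 1.51 TPM at 24h and 0.142 at 72h.

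Among the 39 lists other than cell markers, the one with the highest median was that of S100 proteins, annexins and galectins, calcium- and glycan-binding proteins of the membrane and cytoskeleton several of which mark effector and memory T cells. Of 22 tested, 16 were called higher (72.7%, against 6.93% of all genes) and 2 lower, with a median of 1.59. S100a6 was at 1.53, 1.83 and 1.97 TPM at 24h and 46.1, 44.4 and 60.9 at 72h, a rise of 4.2 (SE 0.28, limma adjusted p = 6.75e-08). Lgals1 (galectin-1) was at 209.8, 163 and 186 TPM at 24h and 1766, 1911 and 2099.5 at 72h, a rise of 3.37. For both genes every 72h library stood far above every 24h library, and the Naive means were 28.4 TPM for S100a6 and 339 for Lgals1. S100a10 rose from 202 ± 10.6 to 967 ± 70.7 TPM, Anxa2, its binding partner, from 37.9 ± 16 to 273 ± 3.14, S100a11 from 119 ± 18.3 to 454 ± 45.8 and Anxa6 from 152 ± 2.26 to 513 ± 3.06. The 2 lower members were S100a8 and S100a9, calprotectin subunits of neutrophils that also stand in the myeloid list, with means of 1.34 and 2 TPM at 24h and listed at 0 at 72h. Without 24h replicate 3, 1 of them was called. For 13 of the 22 replicate 2 was the lowest 24h library, and without it 15 were called higher.

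Several of the largest rises were in genes of other kinds. Vim, the intermediate filament vimentin, was at 101, 88.3 and 111 TPM at 24h and 1729, 1716 and 1629.6 at 72h, a rise of 4.07 (SE 0.067, limma adjusted p = 8.11e-13). Its means were 862 TPM in Naive cells and 703 at 48h, so 24h was the lowest group. Emp1, an epithelial membrane protein, was at 2.24, 1.39 and 1.2 TPM at 24h and 86.7, 77 and 81 at 72h, a rise of 5.003. Atp2b4, a plasma membrane calcium pump, rose from 1.38 ± 0.0736 to 40.9 ± 3.82 TPM, and Emilin2, an extracellular matrix glycoprotein, from 1.35 ± 0.544 to 33 ± 2.49. The metallothioneins Mt1 and Mt2, small zinc-binding proteins, rose by 3.79 and 4.32. Mt2 was at 13.9, 8.76 and 15.5 TPM at 24h and 242, 249 and 315 at 72h, and both had reached 152 (Mt1) and 239.7 TPM (Mt2) by 48h. Fam46a rose from 6.43 ± 1.4 to 75.9 ± 2.62 TPM. On the other side Crabp2, a retinoic acid carrier, was at 71.2, 60.8 and 71.4 TPM at 24h and 0.256, 0.659 and 0.598 at 72h, a fall with a log2 change of −5.52 after a 48h mean of 63.3, and Lad1 fell from 24.3 ± 3.04 to 0.622 ± 0.237 TPM.

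**Figure D4:**
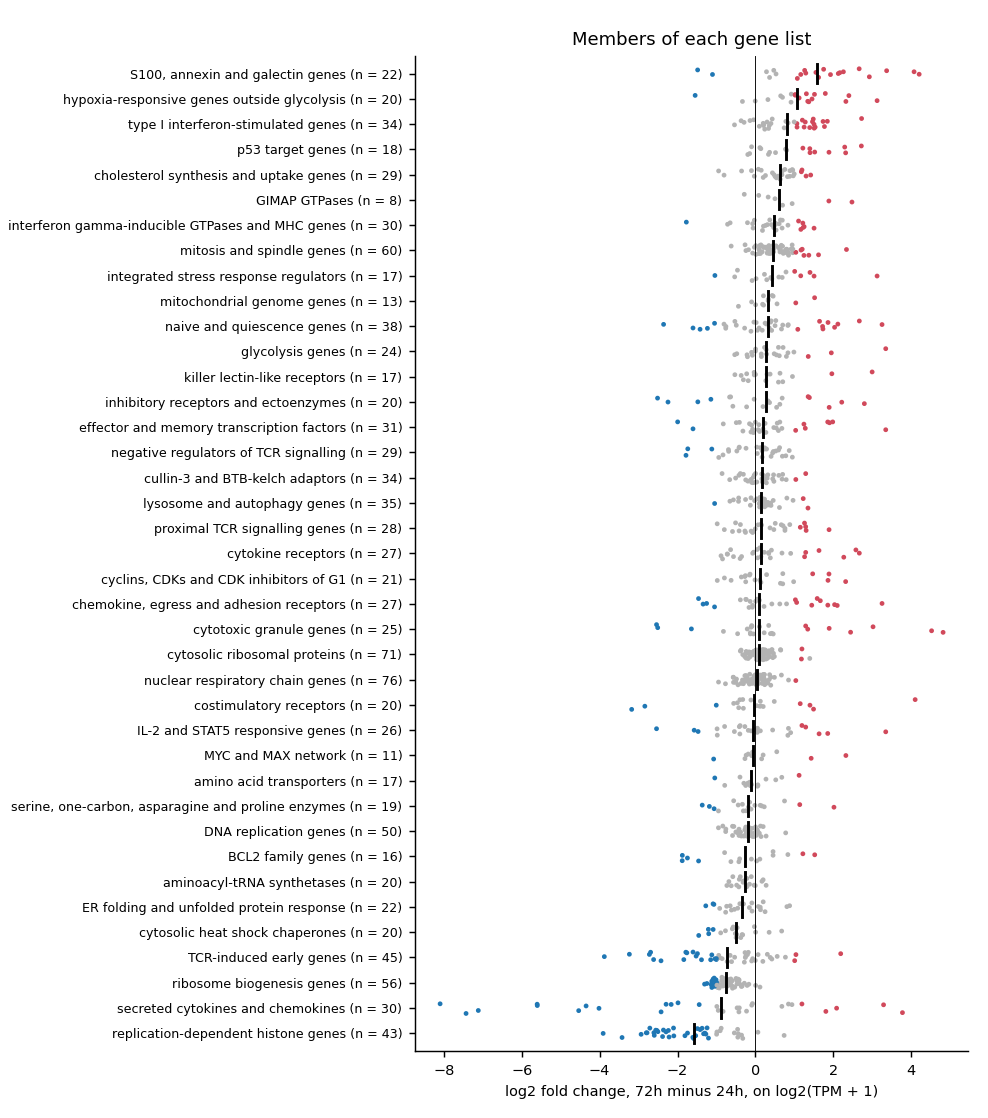
Log2 fold change at 72h against 24h for every tested member of 39 gene lists (points), with red for members called higher, blue for those called lower and grey for the rest; black bars mark the median of each list. Medians run from 1.59 for S100, annexin and galectin genes to −1.59 for replication-dependent histone genes.

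Genes of mitosis had a positive median and genes of DNA replication a negative one. Of 60 genes of mitosis and the spindle, 7 were called higher (11.7%, against 6.93% of all genes) and none lower, with a median of 0.46. By adjusted p alone 42 were higher (70.0%, against 29.1% of all genes). For 32 of the 60 replicate 2 was the lowest 24h library, and without it 8 were called higher. Ccnb2, a cyclin that drives entry into mitosis, was at 54.1, 43.3 and 53 TPM at 24h and 249, 261 and 258 at 72h, a rise of 2.33 (SE 0.13, limma adjusted p = 1.62e-08). Cenpa, the centromeric histone H3 variant, rose from 46.3 ± 7.48 to 143 ± 3.24 TPM, Aspm, a spindle pole protein, from 16.7 ± 1.23 to 44.8 ± 4.05, and Hmmr from 43.3 ± 1.63 to 104 ± 7.02. The Naive means were 104 TPM for Cenpa, 2.85 for Aspm and 3.75 for Hmmr. Cdk1 (120.03 and 99.2 TPM), Aurkb (144 and 153) and Plk1 (114 and 123) lay within the fold minimum. Mki67, the proliferation antigen Ki-67, was at 209, 194 and 223 TPM at 24h and 381, 378 and 342 at 72h, a difference of 0.81 (adjusted p = 1.86e-06, limma) short of 2-fold. Of 50 DNA replication genes none was called by limma on TPM (against 13.1% of all genes) or by voom on recovered reads. The median was −0.2. By adjusted p alone 26 were lower (52.0%, against 30.8% of all genes) and 3 higher (6.0%, against 29.1%). There were 28 lower at an unadjusted p under 0.05. Leaving out 24h replicate 2 or 72h replicate 3 gave 1 called lower. Pcna, the sliding clamp, was at 1052 ± 49.7 and 787 ± 22.8 TPM (−0.42), Fen1 at 271 ± 10.2 and 159.6 ± 7.32 (−0.76), and Tyms, thymidylate synthase, at 49.3 ± 3.44 and 25 ± 1.9 (−0.95).

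Histone genes made the list with the lowest median apart from the B cell markers. Of 43 replication-dependent histone genes tested, 31 were called lower (72.1%, against 6.2% of all genes) and none higher, with a median of −1.59. Hist1h3a was at 127, 92.4 and 132 TPM at 24h and 10.4, 4.24 and 6.81 at 72h, a fall with a log2 change of −3.91 (SE 0.25, limma adjusted p = 4.88e-08). Hist1h2bj was at 189.9, 129 and 167 TPM at 24h and 22.3, 19.2 and 18.8 at 72h, and Hist1h4b fell from 53.3 ± 14.1 to 4.18 ± 1.89. Over the whole list the summed level was 1483, 960.0 and 1311 TPM in the 24h libraries and 242.6, 236.8 and 236.6 in the 72h libraries. The 24h libraries varied more than the 72h libraries and lay above them all. Replicate 2 was the lowest 24h library for 23 of the 43 genes, and without it 28 were called lower. Slbp, which binds the stem-loop of these messages, was at 112 and 114 TPM (0.03). Messages of these genes end in a stem-loop and carry no poly(A) tail, the copies are nearly identical in sequence, and neither the RNA selection of the libraries nor the counting of shared reads is given. The Naive libraries had summed levels of 1284 to 1451 TPM, while Hist1h3a had a Naive mean of 9.63 TPM, so members differed in their Naive levels.

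The cell cycle genes homology region (CHR), TTTGAA, marks many mitosis promoters. It was present in 70.9% of 55 promoters found for 51 of the 60 mitosis genes, in 12.5% of promoters of the genes tested, in 15% of genes called higher, in 12.6% of genes called lower and in 17.9% of all promoters. The box CCAAT, bound by NF-Y, was in 80.0% of the mitosis promoters, 58.3% of 48 promoters of the replication list and 38.3% of those of the genes tested. It was in 34.8% of promoters of genes called higher and 38.1% of genes called lower. Lists with falls held these motifs too. The histone list had CHR in 42.9% and CCAAT in 85.7% of 42 promoters, and the endoplasmic reticulum folding list had CCAAT in 89.5% of 19. The called mitosis genes with the largest changes that held a CHR were Ccnb2 (chr9:70421505-70421804, minus strand) and Cenpa (chr5:30666636-30666935, plus strand), shown with it in capitals.
Ccnb2: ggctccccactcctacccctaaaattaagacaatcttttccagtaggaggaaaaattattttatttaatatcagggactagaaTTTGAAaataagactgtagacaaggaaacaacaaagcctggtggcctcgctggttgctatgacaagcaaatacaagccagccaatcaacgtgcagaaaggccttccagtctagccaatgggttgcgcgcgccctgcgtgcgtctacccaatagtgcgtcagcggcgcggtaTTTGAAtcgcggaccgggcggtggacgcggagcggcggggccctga
Cenpa: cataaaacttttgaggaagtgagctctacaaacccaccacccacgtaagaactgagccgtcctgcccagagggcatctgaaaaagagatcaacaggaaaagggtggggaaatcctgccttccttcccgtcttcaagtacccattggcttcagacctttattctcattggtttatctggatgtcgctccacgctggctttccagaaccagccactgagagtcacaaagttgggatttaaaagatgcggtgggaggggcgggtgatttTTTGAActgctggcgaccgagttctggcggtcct
Ccnb2 holds 2 matches and Cenpa holds 1, and in both a match lies in the bases just after the annotated start.

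Regulators of the G1 phase included 4 called rises among 21 genes (19.0%, against 6.93% of all genes) and no called fall, with a median of 0.11. Without 24h replicate 1, without 24h replicate 3 and with quantile normalization 1 member was called lower. Cdkn1a (p21), an inhibitor of cyclin-dependent kinases, was at 29.9, 19.5 and 33.1 TPM at 24h and 136, 139.97 and 136 at 72h, a rise of 2.31, with a 48h mean of 352 ± 12.8. The atypical cyclins Ccng1 and Ccng2 rose by 1.89 and 1.47, Ccng1 from 94.9 ± 7.62 to 353 ± 17.2 TPM. The D-type cyclin Ccnd2 was at 722 ± 69.7 and 364 ± 12.5 TPM (−0.98), just inside the fold minimum, and its partner kinase Cdk4 at 355 ± 8.55 and 229.8 ± 11.5 (−0.63).

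Most genes that build ribosomes were lower by adjusted p, many by less than 2-fold, while Myc was not called. Myc, the factor that couples activation to growth, was at 654, 592 and 607 TPM at 24h and 584, 589 and 587 at 72h, a difference of −0.07 (SE 0.073, limma adjusted p = 0.411) that was not called. Its dimer partner Max fell from 232 ± 7.35 to 109.6 ± 4.81 TPM. The MAX partners Mxi1 and Mxd4, which oppose MYC, rose, Mxi1 from 9.22, 8.73 and 8.73 TPM to 49.6, 46.8 and 48.8 (2.32) and Mxd4 by 1.43. Of 56 ribosome biogenesis genes, 13 were called lower (23.2%, against 6.2% of all genes) and none higher, and the median was −0.76. By adjusted p alone 54 were lower (96.4%, against 30.8% of all genes). With quantile normalization 8 were called. Rrp9, a part of the U3 snoRNP that processes ribosomal RNA, was at 179, 173 and 165 TPM at 24h and 65.9, 70.6 and 70.7 at 72h, a fall with a log2 change of −1.31 (SE 0.085, limma adjusted p = 5.74e-08). Utp20 fell from 111 ± 4.8 to 46.3 ± 1.57 TPM, Rrp12 from 146 ± 13.6 to 66.1 ± 5.2 and Nop2, a ribosomal RNA methyltransferase, from 329 ± 18.4 to 150.4 ± 3.51. The abundant nucleolar proteins Ncl (1421 and 811 TPM, −0.8) and Npm1 (3429 and 2554 TPM, −0.42) stayed inside the fold minimum. For these genes most of the difference was present at 48h, where Rrp9 had a mean of 83.5 and Nop2 of 167 TPM.

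The E-box CACGTG, the site preferred by MYC and MAX, was present in 20.4% of 54 promoters found for 50 of the 56 ribosome biogenesis genes, against 10.1% of promoters of the genes tested, 11.2% of genes called lower and 7.13% of genes called higher. The called members with the largest changes that held it were Utp20 (chr10:88826765-88827064, minus strand) and Nop2 (chr6:125131633-125131932, plus strand), with the E-box in capitals.
Utp20: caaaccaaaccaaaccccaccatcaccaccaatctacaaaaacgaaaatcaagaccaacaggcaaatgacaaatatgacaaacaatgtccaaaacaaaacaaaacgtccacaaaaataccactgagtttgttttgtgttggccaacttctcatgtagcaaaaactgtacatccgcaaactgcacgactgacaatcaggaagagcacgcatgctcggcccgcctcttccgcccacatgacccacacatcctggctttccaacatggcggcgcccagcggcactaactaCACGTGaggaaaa
Nop2: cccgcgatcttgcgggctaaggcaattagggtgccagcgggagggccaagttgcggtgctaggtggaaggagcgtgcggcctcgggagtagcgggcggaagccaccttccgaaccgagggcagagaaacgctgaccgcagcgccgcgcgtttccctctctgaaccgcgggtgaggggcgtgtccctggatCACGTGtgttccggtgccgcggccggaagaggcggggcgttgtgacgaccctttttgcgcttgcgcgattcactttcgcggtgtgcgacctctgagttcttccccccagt
Each promoter holds 1 E-box. For Rrp9, the member with the largest fall, no match was found, either because its promoter lacks one or because no promoter was matched to its symbol.

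Few genes of the ribosomal proteins themselves passed the fold minimum. Of 71 cytosolic ribosomal protein genes, 2 were called higher and none lower, a smaller share than in all genes (2.82% against 6.93%), with a median of 0.09. By adjusted p alone 29 were higher (40.8%, against 29.1% of all genes) and 11 lower (15.5%, against 30.8%). Replicate 2 was the lowest 24h library for 46 of the 71. Together they held 13.49% to 14.48% of TPM at 24h and 14.66% to 15.88% at 72h. Rps27 rose from 697 ± 84.2 to 1589.5 ± 125 TPM and Rpl39 from 654 ± 24.4 to 1483 ± 75.6. Processed pseudogenes of these genes are many, so single values are uncertain. Rps12 was at 3249, 93.8 and 869.6 TPM at 24h and 1162, 1017 and 4102 at 72h, a difference of 1.39 with an SE of 0.97, and was not called (limma adjusted p = 0.237). Of 20 aminoacyl-tRNA synthetases none was called by limma on TPM (against 13.1% of all genes) or by voom on recovered reads. The median was −0.28. By adjusted p alone 13 were lower (65.0%, against 30.8% of all genes) and 3 higher (15%, against 29.1%). At an unadjusted p under 0.05 there were 14 lower and 3 higher. Hars was at 278 and 173 TPM (−0.68).

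Hypoxia-responsive genes had the next highest median. Of 20 such genes outside glycolysis, 12 were called higher (60.0%, against 6.93% of all genes) and 1 lower, with a median of 1.07. These genes answer to HIF-1, which glycolytic activated T cells use also at normal oxygen. Ddit4 (REDD1), an inhibitor of mTORC1, was at 21.6, 15.3 and 20.6 TPM at 24h and 169.9, 163 and 186 at 72h, a rise of 3.12 (SE 0.17, limma adjusted p = 1.62e-08). Bnip3, a receptor for mitophagy, was at 73.5, 16.5 and 91.7 TPM at 24h and 251, 266 and 261 at 72h, a rise of 2.4 with a larger SE of 0.44. Its 24h libraries differed several-fold among themselves, replicate 2 being the lowest, and all lay under the 72h libraries. The 48h means were 216 TPM for Ddit4 and 368 for Bnip3. Ero1l, an oxidase of the endoplasmic reticulum, rose from 148 ± 28.9 to 507 ± 25.1 TPM, Hif1a itself from 161 ± 7.71 to 327 ± 18.7, and Kdm3a, Ndrg1 and Bnip3l by 1.51, 1.34 and 1.31. The lower member was Adm, from 2.59 to 0.21 TPM. Replicate 2 was the lowest 24h library for 17 of the 20 genes, and without it 9 were called higher and the median was 0.94.

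The core of the hypoxia response element, ACGTG, was present in 69.6% of 23 promoters found for 18 of these 20 genes, in 25.7% of promoters of the genes tested, in 20.8% of genes called higher and in 24.4% of genes called lower. It overlaps the E-box, which contains it on both strands. This motif was chosen after values were seen. The called genes with the largest changes that held it were Ddit4 (chr10:59951721-59952020, minus strand) and Bnip3 (chr7:138909457-138909756, minus strand), with the match in capitals.
Ddit4: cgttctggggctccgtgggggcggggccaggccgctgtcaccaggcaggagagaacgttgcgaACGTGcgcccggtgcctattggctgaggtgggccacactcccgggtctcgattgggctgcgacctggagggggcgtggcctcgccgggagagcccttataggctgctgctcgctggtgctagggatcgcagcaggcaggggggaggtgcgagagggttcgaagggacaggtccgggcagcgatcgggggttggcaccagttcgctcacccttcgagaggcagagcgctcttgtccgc
Bnip3: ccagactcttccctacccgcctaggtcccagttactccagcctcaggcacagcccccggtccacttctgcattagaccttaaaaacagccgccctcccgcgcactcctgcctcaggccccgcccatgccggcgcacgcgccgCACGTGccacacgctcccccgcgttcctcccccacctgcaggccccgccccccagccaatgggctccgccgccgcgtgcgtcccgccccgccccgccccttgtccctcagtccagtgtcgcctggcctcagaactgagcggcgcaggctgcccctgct
In Bnip3 the 2 matches are the strands of 1 E-box, and in Ddit4 the match is not part of one.

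Among 24 glycolysis genes, 3 were called higher (12.5%, against 6.93% of all genes) and none lower, with a median of 0.28, and replicate 2 was the lowest 24h library for 20 of them. Aldoc, an aldolase, was at 5.26, 1.48 and 4.6 TPM at 24h and 44.5, 42 and 45.5 at 72h, a rise of 3.34. Slc2a3, a glucose transporter, was at 53.1, 24.2 and 59.9 TPM at 24h and 167, 171 and 163 at 72h, a rise of 1.95, with a 48h mean of 381. Pfkm, a phosphofructokinase, rose from 15.6 ± 1.39 to 41.3 ± 2.43 TPM. Slc2a1, the main glucose transporter of activated T cells, was at 137, 81.7 and 132 TPM at 24h and 98.1, 102 and 94 at 72h (−0.22, adjusted p = 0.226, limma). Its groups overlapped, and its level was highest at 48h. Ldha was at 2224 and 2447 TPM (0.15) and Pgk1 at 2013 and 3541 (0.83).

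Few nuclear genes of respiration passed the fold minimum, and most genes of the mitochondrial genome were higher by adjusted p alone. Of 76 nuclear genes of the respiratory chain, 1 was called higher (1.32%, against 6.93% of all genes) and none lower (against 6.2%). The median was 0.03 and changed sign under some alternatives. By adjusted p alone 15 were higher (19.7%, against 29.1% of all genes) and 19 lower (25%, against 30.8%). These shares were smaller than those of all genes in both directions. Replicate 2 was the lowest 24h library for 54 of the 76. The called gene, Ndufv3, went from 31.9 ± 5.84 to 65.8 ± 4.34 TPM and lost its call without 24h replicate 2 or 72h replicate 3 and with library weights. Of 13 genes of the mitochondrial genome, 2 were called higher (15.4%, against 6.93% of all genes), and the median was 0.32. By adjusted p alone 8 were higher (61.5%, against 29.1% of all genes) and 1 lower (7.69%, against 30.8%). Replicate 1 was the lowest 24h library for 12 of the 13. mt-Co1, a subunit of complex IV, was at 7573, 8689 and 8465 TPM at 24h and 17019, 16813 and 16719.6 at 72h, a rise of 1.03 that lost its call without 24h replicate 1 and with quantile normalization. mt-Atp8, the other call, varied from 3.93, 6.89 and 13.2 TPM at 24h to 16.6, 17.9 and 38 at 72h, and it lost its call without 24h replicate 1, 24h replicate 2 or 72h replicate 3. Without 24h replicate 1 no gene of this list was called. All mitochondrially encoded genes tested held 4.573% to 5.735% of TPM at 24h and 6.641% to 6.796% at 72h.

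Amino acid and one-carbon genes included both directions. Asns, asparagine synthetase and a target of ATF4, was at 42.6, 33.8 and 50.9 TPM at 24h and 176, 176 and 164 at 72h, a rise of 2.01. Shmt1 and Mthfd1, cytosolic enzymes of one-carbon metabolism, fell with log2 changes of −1.37 and −1.18, Mthfd1 from 334 ± 16.3 to 146 ± 3.63 TPM. Phgdh, the entry enzyme of serine synthesis, was at 552 and 546 TPM (−0.01). In all, 2 of 19 were called higher (10.5%, against 6.93% of all genes) and 3 lower (15.8%, against 6.2%). The lowest 24h library was replicate 2 for 12 of the 19, and without it 4 were called lower. Of 17 regulators of the integrated stress response, 5 were called higher (29.4%, against 6.93% of all genes) and 1 lower (2 with voom on recovered reads). The lowest 24h library was replicate 2 for 12 of the 17, and without it 3 were called higher. Sesn2, a leucine sensor that restrains mTORC1, rose from 19.8 ± 2.4 to 53.7 ± 2.77 TPM, Trib3 rose by 1.16, a call lost without 24h replicate 2, and Ppp1r15a (GADD34) fell by 1.04. Of 17 amino acid transporters, 1 was called higher (5.88%, against 6.93% of all genes) and 1 lower (5.88%, against 6.2%). These shares were close to those of all genes. Replicate 2 was the lowest 24h library for 9 of the 17. Slc7a3 rose by 1.12 and Slc43a1 fell by 1.04, calls lost without 24h replicate 2 and without 24h replicate 1 in turn. Slc7a5, the large neutral amino acid transporter, was at 447 and 463 TPM.

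Cholesterol genes were mostly higher, by less than 2-fold. Of 29, 4 were called higher (13.8%, against 6.93% of all genes) and none lower, and the median was 0.63. By adjusted p alone 21 were higher (72.4%, against 29.1% of all genes) and 2 lower (6.9%, against 30.8%). With quantile normalization 7 were called higher, and with voom on recovered reads 1 was called lower. Msmo1, a sterol demethylation enzyme, was at 32.1, 29.8 and 31.5 TPM at 24h and 84.1, 88.8 and 81.6 at 72h, a rise of 1.42 (SE 0.14, limma adjusted p = 2.56e-06). Insig1, a sensor that retains SREBP in the endoplasmic reticulum, rose from 143 ± 4.81 to 354 ± 11.1 TPM. Hmgcs1, an early enzyme of the pathway, was at 292 ± 13.7 and 539.5 ± 13.2 TPM (0.89), short of the minimum.

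**Figure D5:**
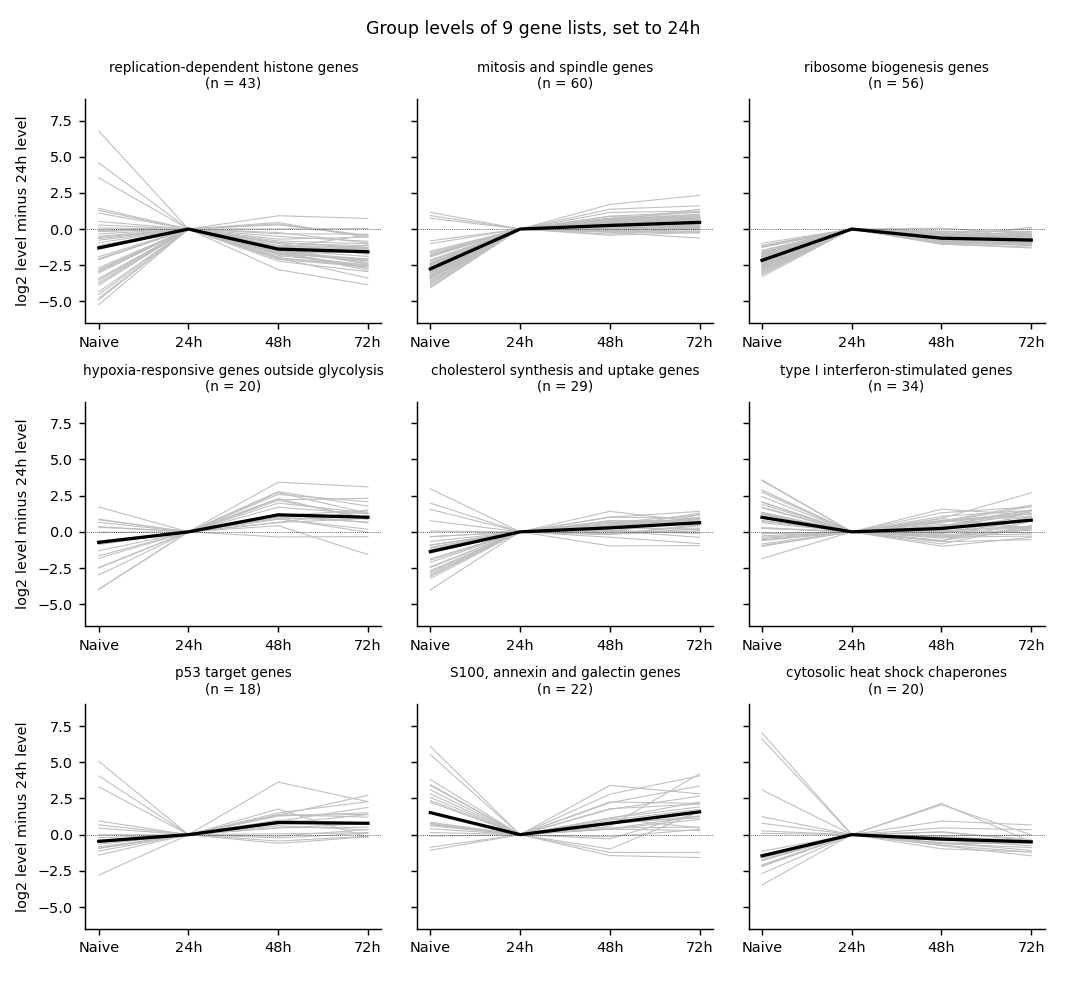
Levels of the members of 9 lists in the 4 groups (log2 of mean TPM + 1, minus the same at 24h), with grey lines for members and a black line for the median. At 72h the median lies above 24h for S100, hypoxia, interferon and p53 genes and below it for histone, ribosome biogenesis and chaperone genes.

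Called changes in chaperones were falls. Of 20 cytosolic heat shock chaperones, 4 were called lower (20%, against 6.2% of all genes) and none higher, with a median of −0.5. Hsph1 (HSP110) was at 159, 181 and 156 TPM at 24h and 62.4, 59.1 and 56.9 at 72h, a fall with a log2 change of −1.46. The HSP90 cochaperones Fkbp4 and Ahsa1 fell with log2 changes of −1.21 and −1.2, and Hspd1, the mitochondrial HSP60 that the list also holds, from 2125 ± 72.3 to 999 ± 19.7 TPM. Hsp90ab1 was at 6552 ± 181 and 5041 ± 81.4 TPM (−0.38). Of 22 genes of folding in the endoplasmic reticulum, 3 were called lower (13.6%, against 6.2% of all genes) and none higher, with a median of −0.35, and voom on recovered reads called 1 higher. Creld2 fell from 116 ± 1.44 to 47.5 ± 2.07 TPM and Hyou1 from 143 ± 15.5 to 66.3 ± 0.493. Hspa5 (BiP) was at 715 ± 47.2 and 419.7 ± 6.3 TPM (−0.77), and Xbp1 at 141 and 154.

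Called changes in genes induced by type I interferon were rises. Of 34, 15 were called higher (44.1%, against 6.93% of all genes) and none lower, with a median of 0.81. By adjusted p alone 23 were higher (67.6%, against 29.1% of all genes) and 2 lower (5.88%, against 30.8%). Cmpk2, a nucleotide kinase, was at 3.61, 1.86 and 2.85 TPM at 24h and 24.3, 23.2 and 22.9 at 72h, a rise of 2.72 (SE 0.19, limma adjusted p = 1.01e-07). Ddx58, the RNA sensor RIG-I, rose from 4.92 ± 0.311 to 20.3 ± 2.06 TPM, Oas3 from 23.8 ± 3.29 to 81.2 ± 6.31, Rsad2 (viperin) from 0.977 ± 0.435 to 5.65 ± 0.498, Irf7 from 7.63 ± 1.87 to 23.5 ± 0.827 and Ifi27l2a from 139 ± 17.7 to 385 ± 58.7. Isg15 was at 48.1 ± 11.1 and 56.2 ± 8.99 TPM (0.24), under the minimum. Replicate 2 was the lowest 24h library for 24 of the 34 genes, and without it 15 were called higher. Of 30 interferon gamma-inducible GTPases and MHC genes, 6 were called higher (20%, against 6.93% of all genes) and 1 lower (3.33%, against 6.2%). Gbp2 was at 731, 811 and 766 TPM at 24h and 220.1, 229.6 and 222 at 72h, a fall with a log2 change of −1.77, while its relatives Gbp7, Gbp6 and Gbp3 rose by 1.5, 1.25 and 1.22. Gbp6 was at 81.6, 87.2 and 88.8 TPM at 24h and 203, 208 and 205 at 72h, with a 48h mean of 45.7 under both. These genes are close copies of each other, so the split of reads between them is uncertain. B2m, the light chain of MHC class I, was at 3678 ± 194 and 6554 ± 400.5 TPM (0.83).

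Of 16 BCL2 family genes, 2 were called higher (12.5%, against 6.93% of all genes) and 4 lower (25%, against 6.2%). Bcl2l11, which encodes the death activator BIM, was at 38.9, 40.9 and 39.2 TPM at 24h and 10.3, 10.8 and 9.12 at 72h, a fall with a log2 change of −1.88. Bcl2, the survival protein it binds, was at 42.4 ± 6.22 and 75.6 ± 2.81 TPM (0.83, adjusted p = 8.01e-05, limma), under the fold minimum, and Bcl2l1 at 196 and 113 (−0.79). The NF-kB target Bcl2a1b fell from 242 ± 24.7 to 71.3 ± 4.69 TPM, one of a group of near-identical copies. The death activators Pmaip1 (NOXA) and Bbc3 (PUMA) rose by 1.52 and 1.22. Pmaip1 had a mean of 26.4 TPM at 72h, below its Naive mean of 94.7. Of 18 p53 targets, 8 were called higher (44.4%, against 6.93% of all genes) and none lower, with a median of 0.79. Trp53inp1 was at 7.41, 7.72 and 7.61 TPM at 24h and 56.5, 58.8 and 51.1 at 72h, a rise of 2.72. Phlda3, an inhibitor of AKT, rose from 3.52 ± 0.656 to 20.9 ± 1.03 TPM. The Naive means were 142 TPM for Trp53inp1 and 2.16 for Phlda3. Mdm2, the ligase that degrades p53, was at 58.2 ± 2.5 and 99.99 ± 4.02 TPM (0.77), and Trp53 at 139 and 129 (−0.1). Of 35 lysosome and autophagy genes, 2 were called higher and 1 lower, shares no larger than those of all genes, with a median of 0.15. Neu1, a lysosomal sialidase, fell from 29.97 ± 3.1 to 13.9 ± 0.848 TPM, a call lost without 24h replicate 1.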

How the data were processed

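RNA-seq libraries of 4 groups of mouse CD8 T cells (Naive, 24h, 48h and 72h, with 3 libraries each) were used. The authors deposited TPM per gene. Per the submitters' processing notes the tools included FastQC 0.11.9, cutadapt 2.9, STAR 2.7.7a and edgeR 3.36.0 with the GRCm39 build. The counting tool, its use of strand, its handling of reads shared between copies and the RNA selection are also not given in the sources used here, so values of near-identical or antisense genes are uncertain. The relative worth of 1 read in each library was estimated from genes of low TPM. For each gene the smallest multiplier that made its scaled values whole in all libraries (tolerance 0.001) then gave recovered reads. As the smallest whole solution, these can fall short of the true reads. They were used for the depths and for 1 alternative.

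Genes with at least 1 TPM in 3 libraries were fitted as log2(TPM + 1) on the 4 group means with limma 3.58.1 in R 4.3.3, with an intensity trend and Benjamini-Hochberg adjustment over all genes tested. The pseudocount of 1 understates changes of low genes. A call needed an adjusted p below 0.05 and a change of 2-fold or more. Group steps through 48h share libraries and are given as values. The procedure was tested on simulated data. Tables and figures were made in Python 3.11.15 with pandas 2.3.3, numpy 2.4.6 and matplotlib 3.10.9.

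The members and all 46 gene lists were chosen with earlier results of these data known, and no list was given a test. Named genes were the 12 largest rises and 12 largest falls (at least 10 TPM in the higher group, no overlap), up to 4 called members of each list (at least 5 TPM), a fixed list of genes of T cell biology, and uncalled members with their values. Other called genes named in the text were chosen after their values were seen. Some genes that this rule names are not reported here. Alternatives covered the pseudocount, filter, scaling, replicate block, groups in the fit, trend, weights, fold rule, voom on recovered reads and leaving out each library.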

Additional observations from a re-analysis of the deposited data

How the results depend on the processing

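With 875 genes called higher and 783 lower at 72h, counts stayed within 1.5 times of these under 16 of 20 alternatives. A pseudocount of 0.1 called 1205 higher and 1181 lower, and a pseudocount of 5 called 409 and 339. Without the fold minimum 3680 and 3893 were called, and with limma's treat test at the fold minimum 319 and 253. With voom on recovered reads 1224 and 1058 were called. Leaving out 1 library gave 831 to 890 higher and 770 to 830 lower. The share of calls that were higher ran from 48.6% to 55.8%. The labels do not say what the replicate numbers share. Same-numbered 24h and 72h libraries had correlations of their deviations from the group means of −0.0134, 0.0409 and −0.00555. Such values cannot show whether these libraries came from the same animals or batch. A fit with the replicate block called 877 and 784. Of 151 called genes that the naming rule picked, 139 kept their call under every alternative other than a pseudocount of 5 and the treat test, 17 lost it with a pseudocount of 5 and 47 with the treat test. None reversed. List medians kept their sign under these alternatives, other than those of cytotoxic granule genes (−0.09 to 0.18), nuclear respiratory chain genes (−0.02 to 0.09) and the MYC and MAX network, which reached 0.0 with quantile normalization. The histone list ran from −2.3 to −0.79, so the size of its change depends on the pseudocount and filter. The cause of these moves was not tested. Depth limits genes of a few TPM, and 3 libraries a group limit the spread estimate.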
